A study of Macaca fascicularis with 44 samples.

Results

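The genes described here were present in freshly isolated cortical microvessels and fell under a set trace level in the cells grown from them. A gene was taken when it had 1 FPKM or more (read pairs of a gene, scaled by its length and by the library total) in every one of the 8 libraries of fresh microvessels and under 0.1 FPKM in every one of the 8 libraries of cortical cells after 7 days of culture. The rule took 253 of 28623 gene identifiers, a share of 0.884%. It took 2.24% of the 11314 genes that reached 1 FPKM in every library of fresh microvessels. The difference between fresh and cultured cortex chose the genes, so it is given as a description with no test. The genes are called culture-silenced below, although few were without counts: 239 of the 253 genes, 94.5%, still had at least 1 count over the 8 cultured cortical libraries. Whether so few counts stand for RNA in the cultured cells was not tested.

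RNA was sequenced from cynomolgus monkeys (Macaca fascicularis) in 44 libraries. The P0D0 fraction is the vessel pellet obtained from cortex by enzymatic digestion and centrifugation, never cultured (n = 8). P0D7 is the same kind of pellet after 7 days in EBM-2 endothelial medium with the EGM-2 MV supplement, with puromycin at the start of the culture, with 8 libraries from cortex, 7 each from hippocampus and striatum, 6 from brainstem and 2 from cerebellum. P1D7 is cortical P0D7 cells detached, re-plated and grown for 7 days more (n = 6). Male and female monkeys were used, left over from earlier preclinical studies after a washout period, and the paper names no genetic modification. The paper gives an age range for the animals, while the labels give neither age nor sex for a library. The labels carry 10 preparation codes shared between groups, and do not say whether a code is 1 animal or a pool.

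As background, the endothelial cells of brain capillaries form the blood-brain barrier, with tight junctions, selective transporters and efflux pumps. Isolated microvessels are not pure endothelium: pericytes sit within the vessel wall, astrocyte endfeet adhere to it, and microglia, fragments of neurons and oligodendrocytes and blood cells can come down with it. Puromycin blocks protein synthesis and kills most cells, while brain endothelial cells survive low doses because they pump it out, so a puromycin culture is meant to retain them. In bulk RNA, fewer cells of a type and less RNA per cell cannot be told apart, and that holds for every level below. The identifiers could not be paired with gene symbols here, since 0 of 28623 matched the 40596 genes of the reference table. The cell types and pathways of the 253 genes were therefore not determined, no marker list could be read, and only 4 identifiers are named.

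Library totals ran from 8600889 to 10738453 counts in P0D0, from 15513781 to 23138726 in cortical P0D7, from 17150398 to 19849831 in P1D7 and from 8633089 to 24450445 in the other structures. For a culture-silenced gene of median length, 0.1 FPKM was worth 2.37 to 6.72 counts in the cultured libraries. For 27 of the 253 genes a single count reached 0.1 FPKM in at least 1 cultured library. Trace values thus rest on a few read pairs, and counts are given beside them.

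In fresh microvessels the culture-silenced genes were of middling to low abundance. Their mean level in P0D0 ran from 1.84 to 56.5 FPKM with a median of 6.20, against a median of 12.7 over the 11314 genes. The mean was at least 5 FPKM for 152 genes, at least 10 for 79, at least 20 for 31 and at least 40 for 4. Their effective length had a median of 2750 nt, against 2517 nt over the 11314 genes, and ran from 207 to 90329 nt. The 10 genes of highest level held 17.0% of the P0D0 counts of the set. Counts also depend on length: the longest gene, with a mean of 5.13 FPKM, held 16.7% of the set's counts in P0D0 replicate 4.

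The limits cut through a continuous range of values. The 3 culture-silenced genes nearest to the upper limit had their highest cortical P0D7 library at 0.0987 to 0.0997 FPKM, and the 3 genes just past it at 0.1004 to 0.1012. At the lower limit, the lowest P0D0 library of the nearest 3 genes inside lay at 1.004 to 1.01 FPKM and that of the nearest 3 outside at 0.984 to 0.999. A further 99 genes missed the rule through 1 P0D7 library alone and 82 through 1 P0D0 library alone.

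The 253 genes together held 0.848% ± 0.114 (SD, n = 8) of the counts of a P0D0 library, with a range of 0.695% to 1.03%. In cortical P0D7 they held 0.00163% ± 0.000265 (SD, n = 8), with a range of 0.00129% to 0.00197%. The re-plated P1D7 cells lay in much the same range, at 0.00179% ± 0.000175 (SD, n = 6) and between 0.00158% and 0.00200%. Within a preparation code, the share rose from P0D7 to P1D7 in BBB029 (0.00129% to 0.00200%) and BBB032 (0.00146% to 0.00170%). It also rose in BBB035 (0.00138% to 0.00164%) and BBB036 (0.00146% to 0.00191%). It fell in BBB030 (0.00197% to 0.00192%) and BBB031 (0.00180% to 0.00158%). The rule capped P0D7 but not P1D7, and this change was not tested. The other structures, which the rule did not use, were as low: 0.00158% ± 0.000736 (SD, n = 6) in brainstem, 0.00114% ± 0.000168 (SD, n = 7) in hippocampus and 0.00175% ± 0.00118 (SD, n = 7) in striatum. The 2 cerebellar libraries held 0.00235% and 0.000934%. In absolute terms, 59780 to 98547 counts of a P0D0 library fell on the set, 214 to 365 of a cortical P0D7 library, 282 to 383 of a P1D7 library and 76 to 684 of a library of another structure.

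**Figure D1:**
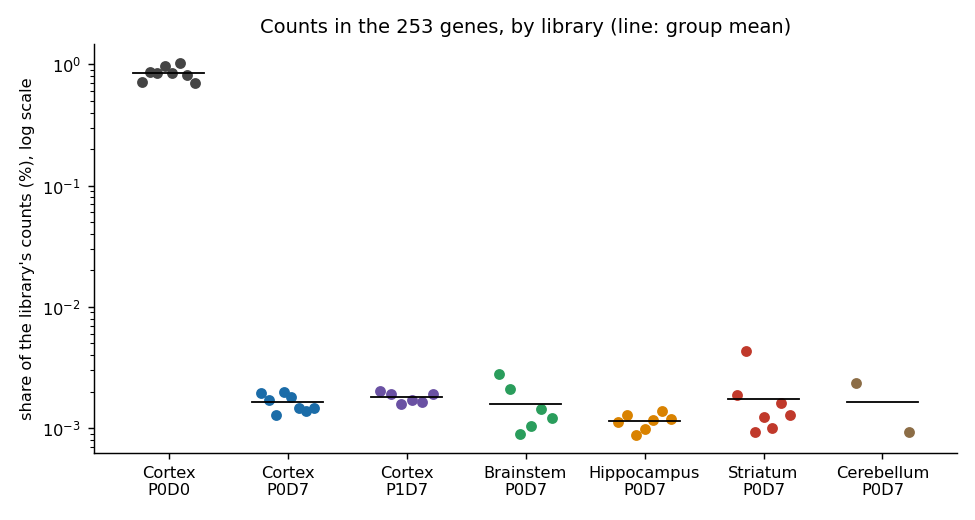
Share of each library's counts that fell on the 253 culture-silenced genes, in percent on a log axis, with 1 point per library and a line at the group mean. The 8 P0D0 libraries sit between 0.695% and 1.03%, and every cultured library, from 5 structures and 2 passages, sits at or below 0.00433%.

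Gene by gene, the level in P0D0 was a median of 477 times that in cortical P0D7, with a range of 42.9 to 1870. For these ratios the P0D0 level was the mean over libraries of CPM, which is counts scaled to the library total. The level of the cultured group was its summed counts scaled in the same way to its summed total. The 89 genes with 3 counts or fewer over the group were set to a floor of 3 counts, which makes their ratio a lower bound. The 14 genes with 0 counts in cortical P0D7 were at least 42.9-fold to at least 491-fold lower there. A further 75 genes had 1 to 3 counts and 164 had more. The median over the set was 5 counts over the 8 cultured cortical libraries, and the highest was 132. Against P1D7 the median ratio was 433, against brainstem 376, hippocampus 492 and striatum 406, with 129, 154, 148 and 142 genes at the floor, respectively. In cerebellum the median was 231, with 214 genes at the floor. In these 5 groups most of the 253 genes were at the floor, so the medians depend on the depth of the group and their order shows no difference between groups. Only 6 of the 253 genes had no count in any of the 36 cultured libraries.

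The 2 culture-silenced genes of highest level in fresh microvessels show the extent of the fall. ENSMFAG00000038424 had 56.5 ± 22.6 FPKM in P0D0 (SD, n = 8), with a lowest library of 22.7, a median of 59.8 and a highest of 88.8. In cortical P0D7 it had 0.0527 ± 0.0268 FPKM (SD, n = 8), from 0 to 0.0878 with a median of 0.0566, on 32 counts in 7 of the 8 libraries. In P1D7 it ranged from 0.0172 to 0.0993 FPKM with a median of 0.0441, on 19 counts, and all 6 libraries had a count. The P0D0 mean was 1074 times the P0D7 mean and 1198 times the P1D7 mean, so the low level was held on re-plating and a trace was still read in every library. Outside cortex its mean lay at 0.0166 FPKM in brainstem, 0.0149 in hippocampus and 0.0165 in striatum, with medians of 0, 0.0100 and 0.0146 and highest libraries of 0.0882, 0.0403 and 0.0480. The cerebellar libraries had 0.0418 and 0.0125 FPKM.

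ENSMFAG00000031999 had 48.7 ± 14.4 FPKM in P0D0 (SD, n = 8), from 27.7 to 64.6 with a median of 49.96. It fell to 0.0451 ± 0.0249 FPKM in cortical P0D7 (SD, n = 8), from 0.0153 to 0.0936 with a median of 0.0387, on 41 counts found in every library. In P1D7 it ranged from 0.0275 to 0.0946 FPKM with a median of 0.0660, on 43 counts. P0D7 and P1D7 overlapped almost over their full ranges. In the other structures most libraries had few or no counts: 6 over brainstem, 8 over hippocampus, 7 over striatum and 1 over cerebellum. The highest value was 0.0399 FPKM in brainstem, 0.0288 in hippocampus, 0.0568 in striatum and 0.0089 in cerebellum, and the medians were 0.0041, 0.0071 and 0 in the first 3.

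Traces of at least 0.1 FPKM, the limit used for the choice, were next counted in the 28 cultured libraries that the rule did not use. In P1D7, 224 of the 253 genes, 88.5%, stayed below that limit in all 6 libraries, while 3.13% of the 11314 genes did. In brainstem 203 did, against 2.67% of all 11314 genes, and in hippocampus 218 did, against 2.85%. In striatum 194 did, against 2.47%, and in cerebellum 244 did, against 4.43%. The 11314 genes include the 253. Of the 11061 others, 1.18% stayed below the limit in P1D7, 0.895% in brainstem, 0.949% in hippocampus, 0.778% in striatum and 2.32% in cerebellum. By the rule, each of these others reached 0.1 FPKM in a cortical P0D7 library. Under 0.1 FPKM in all 36 cultured libraries were 155 genes, 61.3% of the set, and 1.59% of the 11314 genes were under it in all 28 libraries that the rule left aside.

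Conversely, 29 of the 253 genes reached 0.1 FPKM in at least 1 P1D7 library, 50 in brainstem, 35 in hippocampus, 59 in striatum and 9 in cerebellum. In no group did a gene reach it in every library. Of the 29 genes in P1D7, 18 did so in 1 library, 11 in more than 1, and 3 in at least 3 of the 6. Some of these values rested on fewer than 3 counts in every library concerned, for 4 genes in P1D7, 8 in brainstem, 5 in hippocampus, 7 in striatum and 3 in cerebellum. A value of 1 FPKM or more was seen once, for ENSMFAG00000043985 in brainstem replicate 1. The highest value elsewhere was 0.341 FPKM in P1D7, 0.706 in hippocampus, 0.871 in striatum and 0.336 in cerebellum.

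Of the 98 genes with such a trace, 10 had it in P1D7 alone, 69 in the other structures alone and 19 in both, which is 65.5% of the P1D7 genes and 21.6% of the 88 genes of the structures. Over the 28 libraries, 41 genes had a trace in exactly 1 library, 47 in 2 to 4 and 10 in 5 or more, with a maximum of 12. Most traces were thus seen in few libraries. Every P1D7 library lay below every P0D0 library for all 253 genes, as it did for 30.6% of the 11314 genes. The choice favours this result, since the rule sets a lower limit in every P0D0 library. The P1D7 cells were also grown from P0D7 cells, which the rule capped. As to a return on re-plating, the mean in P1D7 was above that in P0D7 for 116 genes and below it for 128. Every P1D7 library lay above every P0D7 library for 1 gene, where 2.09% of the 11314 genes did so. The choice bears on this in both directions. The cap on P0D7 eases such a separation, but a gene with no count in a P1D7 library cannot separate. A P1D7 library had a count for only 104 to 127 of the 253 genes, so the 1 gene cannot be weighed against that share.

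**Figure D2:**
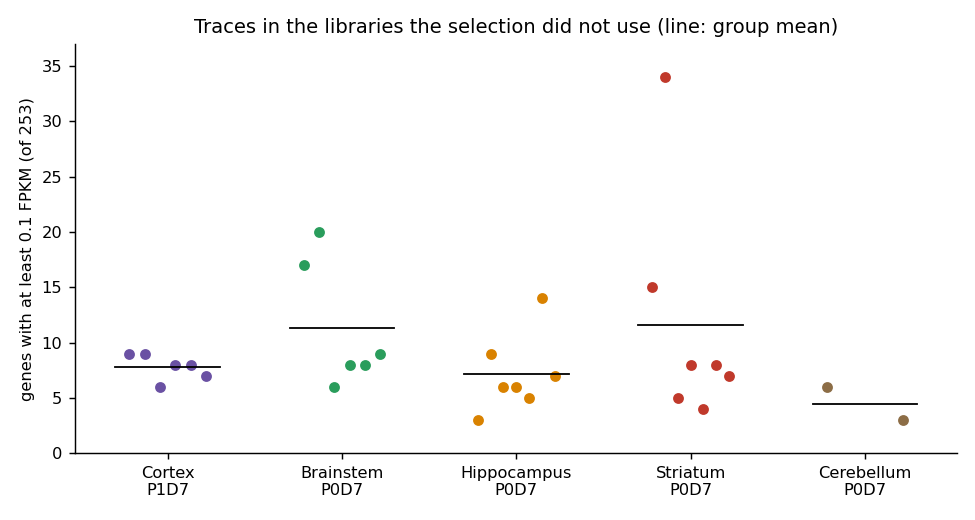
Number of the 253 culture-silenced genes with at least 0.1 FPKM in each of the 28 cultured libraries not used to choose them, with a line at the group mean. The P1D7 libraries lie between 6 and 9 genes, and striatum replicate 2 stands apart with 34.

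The 2 genes with the highest mean in P1D7, among those with at least 3 counts in at least 2 P1D7 libraries, were looked at for a return. ENSMFAG00000031347 had 5.01 ± 1.88 FPKM in P0D0 (SD, n = 8), with a range of 1.74 to 7.24 and a median of 5.15. It had 0.0174 ± 0.0225 FPKM in cortical P0D7 (SD, n = 8), with no count in 4 libraries, a median of 0.0033 and a highest library of 0.0485. In P1D7 the 6 libraries had 0.215, 0.0235, 0.102, 0.328, 0.115 and 0.207 FPKM, on 62 counts against 10 counts over P0D7. Thus 5 of 6 P1D7 libraries lay above all P0D7 libraries, at a mean of 3.30% of the P0D0 level. The gene length behind the FPKM differs between libraries for this gene, since 12 counts gave 0.102 FPKM in P1D7 replicate 3 and 7 counts gave 0.207 in replicate 6. It reached 0.1 FPKM in 1 brainstem library (0.116), 1 hippocampal library (0.181) and 3 striatal libraries (highest 0.302), with medians of 0.0083, 0.0478 and 0.0849. Both cerebellar libraries had no count.

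ENSMFAG00000043985 had 19.5 ± 12.6 FPKM in P0D0 (SD, n = 8), from 10.0 to 49.2 with a median of 14.7. In cortical P0D7 it had 0.0463 ± 0.0352 FPKM (SD, n = 8), from 0.0074 to 0.0972 with a median of 0.0402. The 6 P1D7 libraries had 0.152, 0.117, 0.125, 0.152, 0.094 and 0.341 FPKM, on 115 counts against 44 over P0D7. Again 5 of 6 exceeded the highest P0D7 library, at a mean of 0.839% of the P0D0 level. The genes were picked for a high P1D7 mean, and a cap of 0.1 FPKM had been placed on P0D7, so no test is given. In brainstem the 6 libraries had 1.29, 0.216, 0, 0.0080, 0 and 0.0250 FPKM. The 7 striatal libraries had 0.283, 0.765, 0, 0.0334, 0.0185, 0.577 and 0.0542 FPKM. Hippocampus ran from 0 to 0.213 FPKM with a median of 0.0373, and the cerebellar libraries had 0 and 0.0783. In brainstem and striatum some libraries were at or near 0 and others lay above every cortical P0D7 library, brainstem replicate 1 with 132 counts and striatum replicate 2 with 75.

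**Figure D3:**
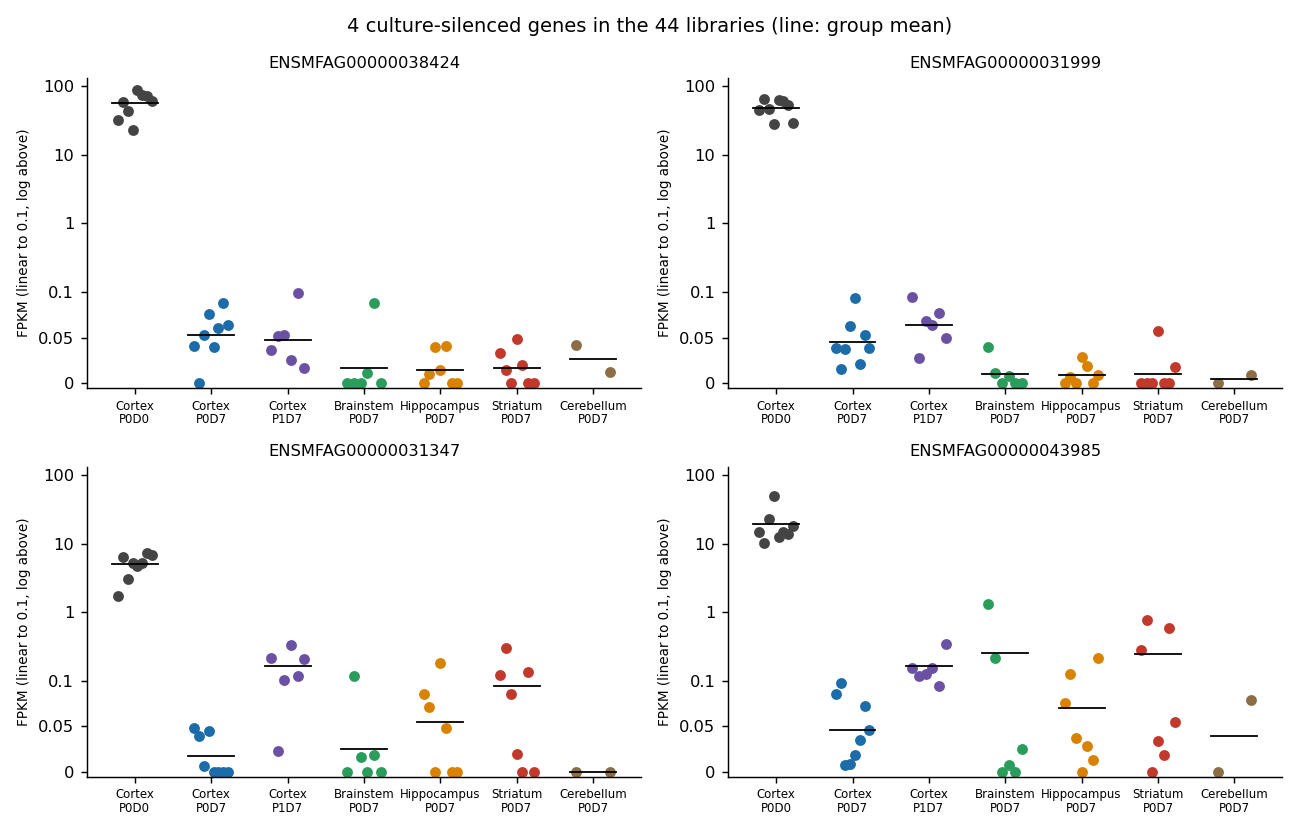
FPKM of the 4 named genes in all 44 libraries, with 1 point per library, a line at the group mean and an axis that is linear up to 0.1 and logarithmic above. The upper genes stay under 0.1 FPKM in every cultured library, while the lower genes exceed it in 5 of 6 P1D7 libraries and in some libraries of other structures.

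The traces were next set against the level in fresh microvessels. A cultured cortical library of either passage had at least 1 count for 102 to 142 of the 253 genes, while a library of another structure had 37 to 105. Across the 253 genes, Spearman's rho of the mean FPKM with that in P0D0 was 0.336 in P1D7. In cortical P0D7 it was 0.511, where both sides are values that chose the genes, so this is a description of the chosen set only. In brainstem rho was -0.0056, in hippocampus 0.0729, in striatum 0.0600 and in cerebellum -0.0013. Taken library by library, rho lay between 0.2003 and 0.379 in cortical P0D7 and between 0.151 and 0.308 in P1D7, and between -0.0860 and 0.115 in the 22 libraries of other structures. The P1D7 libraries, which the rule did not use, did not overlap with those of the structures. These are correlations across genes, which are not replicates, all groups are set against the same P0D0 mean, and no p is attached. With every group thinned at random to 747 counts, rho was 0.383 in cortical P0D7, 0.276 in P1D7 and at most 0.0493 in the other structures, and the order of the cortical and other groups was the same. With counts in place of FPKM, where gene length enters both sides, rho was 0.716, 0.632 and 0.195 to 0.287, respectively.

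Levels gave a less uniform picture. When the genes were divided by their P0D0 level into a lowest group of 84 (1.84 to 4.31 FPKM), a middle group of 85 (4.36 to 9.21) and a highest group of 84 (9.62 to 56.5), the median level in cortical P0D7 was 0.0083, 0.0121 and 0.0242 FPKM. In P1D7 it was 0.0069, 0.0117 and 0.0173 FPKM. In brainstem it was 0.0071, 0.0077 and 0.0058, in hippocampus 0.0050, 0.0070 and 0.0068, and in striatum 0.0082, 0.0122 and 0.0105 FPKM. These medians rose over the 3 groups in P1D7 and, among the values that chose the genes, in cortical P0D7. The mean, which weighs the few genes with high traces, rose in striatum as well: it was 0.0141, 0.0220 and 0.0235 FPKM there and 0.0134, 0.0196 and 0.0250 in P1D7. In brainstem the mean was 0.0135, 0.0200 and 0.0182 FPKM, and in hippocampus 0.0127, 0.0162 and 0.0128. Genes with no count over the group numbered 8, 6 and 0 in cortical P0D7 and 16, 13 and 4 in P1D7. They numbered 33, 26 and 25 in hippocampus, 25, 25 and 21 in striatum, 31, 30 and 31 in brainstem and 47, 42 and 48 in cerebellum. In the labels the cortical libraries, P0D0 included, carry one run of library numbers and the other structures another, so the numbering and the structure cannot be told apart here.

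**Figure D4:**
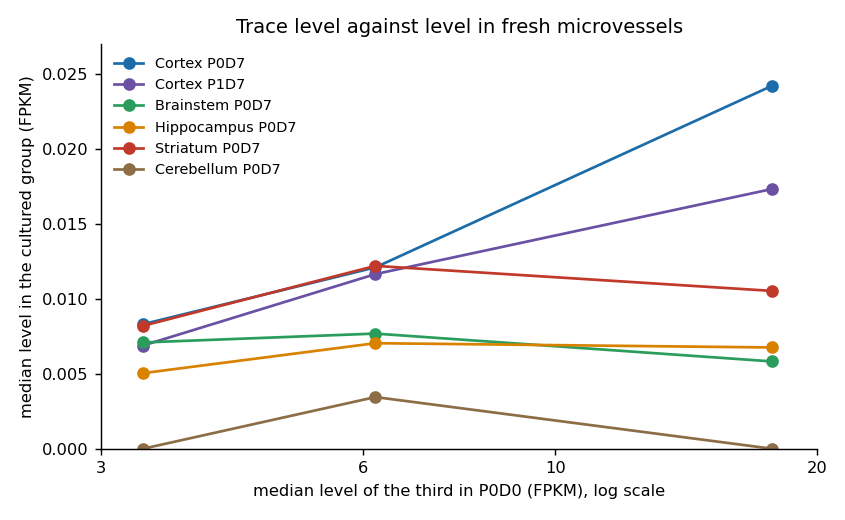
Median level in each cultured group (FPKM) of the culture-silenced genes of low, middle and high level in fresh microvessels, against the median P0D0 level of those genes on a log axis. Cortical P0D7 rises from 0.0083 to 0.0242 FPKM and P1D7 from 0.0069 to 0.0173, while in brainstem, hippocampus, striatum and cerebellum the highest group lies below the middle one.

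A second set was chosen on the other structures for comparison. Of the 11314 genes, 215 were under 0.1 FPKM in all 22 libraries of brainstem, hippocampus, striatum and cerebellum. They shared 165 genes with the culture-silenced set, 65.2% of that set and 76.7% of the 215. The 50 others had a median of 24.1 FPKM in fresh microvessels, with a range of 2.55 to 737, against a median of 6.20 and a range of 1.84 to 56.5 for the culture-silenced genes. By the way they were chosen, these 50 lie at 0.1 FPKM or more in a cortical P0D7 library and below it in every structure library, so their levels in these groups are not compared. In P1D7 the median of the 50 was 0.0463 FPKM, against 0.0116 for the culture-silenced genes. Neither choice used the P1D7 libraries, but those cells were grown from cortical P0D7 cells, where the choice itself parts the genes. The 50 also had the higher P0D0 level, so this gap is a description only. Over the 215 genes, rho with the P0D0 level was 0.590 in P1D7 and 0.719 in cortical P0D7, neither of which chose the 215, and -0.0174 in the mean of the structures, where the choice caps the values.

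The culture-silenced genes varied more among the fresh microvessel libraries than the 11314 genes, which include them. Their coefficient of variation over the 8 P0D0 libraries had a median of 49.6%, against 23.5% for the 11314 genes. The highest library exceeded the lowest by a median of 4.54-fold, against 2.10-fold. The rule used these libraries, and the 253 genes had the lower level, a median of 6.20 against 12.7 FPKM. The sets were not matched for level, so the gap is a description only. The first 2 principal components of log2 FPKM over P0D0 held 40.2% and 21.1% of their variance, and 31.0% and 29.7% of that of the 11314 genes. The spread was not a shift of the set as a whole. P0D0 replicate 4 (preparation BBB032) was the highest library for 52 of the 253 genes and the lowest for 89. Replicate 3 (BBB031) was the highest for 63 and replicate 6 (BBB036) for 53, and the median gene of replicate 6 lay 0.37 on the log2 scale above its own mean.

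Average linkage on the correlation over the P0D0 libraries, cut into 3 groups after the values were seen, gave sets of 132, 68 and 53 genes. The first group lay -0.97 on the log2 scale from its own mean in replicate 4. The second lay 1.04 above its mean in replicate 3, and the third 1.52 above its mean in replicate 4, where its median level was 14.2 FPKM against 3.10 to 6.58 in the other libraries. The median P0D0 level of the groups was 8.36, 4.18 and 5.50 FPKM. Counts of the third group made up 56.9% of the set's counts in P0D0 replicate 4 and a median of 16.9% over the 8 P0D0 libraries. No identity can be given to these groups, since the genes carry no symbols here.

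The third group held more of the traces than the others. A trace of 0.1 FPKM or more in any of the 28 libraries not used by the rule was read for 36 of its 53 genes (67.9%), against 42 of 132 (31.8%) and 20 of 68 (29.4%) in the other groups. In striatum the shares were 49.1%, 15.2% and 19.1% for the third, first and second group, and in brainstem 41.5%, 15.2% and 11.8%. In P1D7 they were closer for the third and first, at 18.9% and 13.6%, and the second had 1.47%. With 20.9% of the genes, the third group held 40.6% of the set's counts over the 28 libraries and 26.98% in cortical P0D7. The groups were formed after seeing values and get no test. Much of the difference came with 4 libraries picked after their values were seen, replicates 1 and 2 of striatum and of brainstem: without them the shares with a trace were 43.4%, 28.8% and 23.5%, and the third group held 34.8% of the counts. Without the 2 genes of the third group that had most counts, over all 28 libraries, the share with a trace was 66.7% and the share of counts 30.8%.

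**Figure D5:**
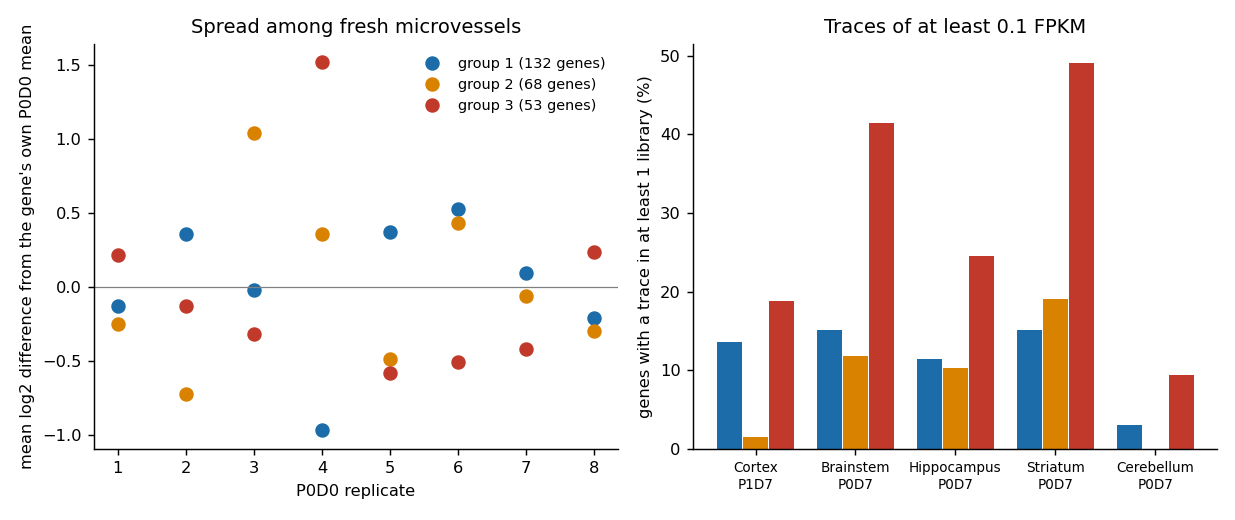
Left, mean log2 difference of 3 groups of culture-silenced genes from each gene's own P0D0 mean in the 8 P0D0 libraries; right, percent of each group's genes that reached 0.1 FPKM in at least 1 library of a cultured group. The group of 53 genes that lies 1.52 above its mean in P0D0 replicate 4 has the highest percentage with a trace in each of the 5 cultured groups.

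Striatum replicate 2 had the most traces of all libraries, with 34 genes at 0.1 FPKM or more where the other striatal libraries had 4 to 15. Its share of counts was 3.43 times the median of the other striatal libraries. The 34 genes were at a median of 3.09% and at most 10.4% of their mean P0D0 level. Of the 34 genes, 9 were under 0.1 FPKM in each of the other 21 structure libraries and 6 in all 35 other cultured libraries, and 21 were of the third group of 53 genes, which held 69.3% of the set's counts in this library. Without this library, 40 in place of 59 genes had a trace in striatum. The library comes from preparation BBB028, and with BBB027 that preparation also gave the highest shares in brainstem, 0.00212% and 0.00281%, and the highest in striatum, 0.00433% and 0.00187%. In hippocampus the same preparations had 0.00128% and 0.00111%, within the range of the other libraries, 0.000880% to 0.00138%, and in cortical P0D7 0.00169% and 0.00196%. Brainstem and striatum of BBB028 shared 13 genes with a trace, 65.0% of the brainstem genes and 38.2% of the striatal genes. Those of BBB027 shared 4, 23.5% and 26.7%. Across preparations, striatum of BBB027 and BBB028 shared 8, and brainstem of BBB027 shared 7 with striatum of BBB028. Brainstem of BBB027 and BBB028 shared 4, as did brainstem of BBB028 and striatum of BBB027. The number shared within BBB028 was thus above all of these, and that within BBB027 was above none. The lists differ in length, with 34 genes in striatum of BBB028 against 15 to 20 in the others, and sharing was not tested. Preparations BBB027 and BBB028 have no P0D0 library, so the levels in their fresh microvessels are not known here.

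Cerebellum replicate 1 stood apart through 1 gene. The longest culture-silenced gene, of effective length 90329 nt, had 300 of the 574 counts of the set in this library, 52.3%. Its level there was 0.187 FPKM, against 0.0040 in the other cerebellar library and at most 0.0223 in all other cultured libraries. In fresh microvessels it had a median of 3.66 FPKM with 17.9 FPKM in P0D0 replicate 4, and it belongs to the group of 53 genes. Without it, the set's share of counts in cerebellum replicate 1 was 0.00112%, near the other structures.

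The 4 structures other than cortex were compared in 6 pairs with edgeR's quasi-likelihood test. A gene was called at a change of 1.5-fold or more with a p of 0.05 or less after Benjamini-Hochberg adjustment. The rule did not use these libraries, but they share preparation codes with cortical libraries that it used. Among the 11954 genes that reached 1 FPKM in 3 libraries or more, 0 of the 253 culture-silenced genes could be tested, since none passed that filter. Of the genes tested, 0.686% were called in cerebellum against hippocampus, 0.259% in cerebellum against striatum and 0% in the other 4 pairs. Without the filter, 18836 genes and 214 of the 253 were tested, and the other 39 had no count in the 22 libraries. Of the 214, 0 were called in any pair by edgeR, while 10 to 19 (4.67% to 8.88%) had an unadjusted p under 0.05, against 2.19% to 12.0% of the 18836 genes. The share called of all genes tested was 0.425% in cerebellum against hippocampus, 0.0956% against striatum, 0.0319% against brainstem and 0% in the other pairs. With the preparation code as a block and no filter, 1 gene was called, the longest one: it was higher in cerebellum than in hippocampus (log2 4.48, adjusted p = 0.0148) and than in striatum (log2 4.44, adjusted p = 0.0157, edgeR). The block raised the share called over all genes to 2.81% and 3.64% in these pairs, 3.38% in cerebellum against brainstem, 1.6% in hippocampus against brainstem and 0.0159% in striatum against hippocampus. DESeq2 without a filter, which gave an adjusted p to 8 to 214 of the culture-silenced genes a pair, called it against hippocampus only (log2 4.30, adjusted p = 0.0127). Of all genes with an adjusted p, DESeq2 called 3.26% in that pair, 1.57% and 1.49% in cerebellum against striatum and brainstem, and 0.0405% and 0.0212% in hippocampus against brainstem and striatum. That call rests on cerebellum replicate 1 and on a group of 2 libraries. No difference between these structures was otherwise detectable at the depth of the traces.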

How the data were processed

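The 44 libraries were made by the authors from total RNA with ribosomal RNA depletion and a strand-specific kit, and sequenced as read pairs. In ArrayStudio the authors removed ribosomal, low-quality and short reads (under 25 nt), aligned the rest to the Cyno.WashU 2013 assembly with OSA4 and counted pairs per gene of Ensembl release 94. The deposited count table holds estimated counts, 1.45% of them not whole, which were rounded for the tests. The deposited FPKM table scales them to gene length and library total. The effective length behind FPKM differed by over 5% (coefficient of variation over P0D0) for 71 of the 253 genes. Groups came from the labels.

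The genes, lists and tests were chosen with earlier results of these data known. The lists could not be used without symbols. The rule for naming without symbols was the 2 genes of highest P0D0 mean and the 2 of highest P1D7 mean with at least 3 counts in at least 2 P1D7 libraries. Fold ratios used CPM with a floor of 3 counts over a group. Read pairs carry no molecular identifiers, so floors cover counting error only, and p-values measure the spread between libraries.

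Structures were compared with edgeR 4.0.16 (TMM, quasi-likelihood) in R 4.3.3, and with DESeq2 1.42.0 as an alternative. The edgeR fit was first tried on simulated counts of genes that passed the filter. None of the culture-silenced genes did, so that trial does not cover their traces. Preparation codes in the labels pair libraries of different structures. Among brainstem, hippocampus and striatum, deviations from the group means correlated within a code (lowest r 0.240, mean 0.602, 17 pairs). Between codes the mean r was -0.0884 (116 pairs). Taking deviations from group means makes that mean negative where libraries of a code correlate, so it is no separate result. Alternatives were other limits, CPM for FPKM, counts for FPKM in the trace limit, the block, no filter and leaving out each library. Grouping, thinning and the unfiltered block and DESeq2 fits were added after seeing the data. No sequence is shown, since no sequence table was used here.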

Additional observations from a re-analysis of the deposited data

Results flagged for a closer look

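Within groups of 4 to 10 libraries, 34 sets of values were checked for a library far from the others, and 9 were found; chance gives about 1 in 20. Striatum replicate 2 stood apart in the share of counts on the culture-silenced genes, 0.00433%, and in the number of them at 0.1 FPKM or more, 34. ENSMFAG00000043985 stood apart in P0D0 replicate 4 with 49.2 FPKM, in P1D7 replicate 6 with 0.341 FPKM and in brainstem replicate 1 with 1.29 FPKM. The other 4 values were in structures where most libraries were at or near 0 and rest on 2 to 5 counts each. They were ENSMFAG00000038424 in brainstem replicate 5 (0.0882 FPKM), ENSMFAG00000031999 in brainstem replicate 1 (0.0399 FPKM) and striatum replicate 4 (0.0568 FPKM), and ENSMFAG00000031347 in brainstem replicate 2 (0.116 FPKM). What set these libraries apart was not tested.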

How the results depend on the processing

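The number of culture-silenced genes moved with the limits: 130 at under 0.05 FPKM in P0D7, 409 at under 0.2, 402 at 0.5 FPKM or more in P0D0, 142 at 2 or more, and 14 with 0 counts over P0D7. Leaving out 1 cortical library gave 253 to 277. Genes with a trace numbered 99 at 0.05 FPKM, 6 at 0.2 and 85 at 3 counts in P1D7. By the same limits brainstem had 97, 11 and 88, striatum 121, 25 and 104, hippocampus 92, 7 and 93, and cerebellum 35, 3 and 48. Leaving out 1 library gave 3 to 6 in cerebellum, 3 without replicate 1, and 40 to 57 in striatum. As a share of summed FPKM, the set held 0.364% in P0D0, 0.000646% in P0D7, 0.000749% in P1D7, 0.000632% in brainstem, 0.000539% in hippocampus and 0.000468% in cerebellum, and without its 10 highest genes 0.705% of P0D0 counts. The preparation block, with the filter, called 0 genes of the set, none being tested. Without the filter, 1 gene, the longest, was called in cerebellum against hippocampus and against striatum with the block, in cerebellum against hippocampus with DESeq2, and in both pairs with edgeR without cerebellum replicate 2, where replicate 1, which holds 300 counts of this gene, stands alone and is assumed to vary like the other groups. Leaving out 1 library gave 0 to 1. Of 309 alternatives 265 stayed the same. What moved the rest was not tested beyond the limits themselves. The tally is no measure of robustness, since many outcomes were fixed in advance. In every comparison of structures with the filter, none of the 253 genes was tested, so 0 called was the only possible result. Leaving a cortical library out of the rule can only keep or raise the number of genes. Trace values rest on a few counts a library, and a gene with no count may lie under the depth.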
